A study of Homo sapiens with 30 samples.

Results

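Origin licensing was followed through 10 genes of its machinery, CDC6, CDT1, MCM2, MCM3, MCM4, MCM5, MCM6, MCM7, ORC1 and ORC6, chosen by name out of the 22374 genes in the deposited table. All 10 had reads and all 10 passed the filter on low levels. They were measured in 30 SLAM-seq libraries of 22Rv1 cells, 1 established human line of castration-resistant prostate cancer, grown in RPMI medium with serum. In SLAM-seq, RNA made during labelling carries the uridine analogue 4-thiouridine (s4U), which iodoacetamide modifies after extraction so that sequencing reads it as a T-to-C conversion. Each gene therefore has a level, in reads scaled to library size (CPM), and a conversion in every library. Conversion is the deposited T-to-C fraction, whose denominator is not given in the sources used here.

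All cells first received 800 µM s4U for 30 min. Cells of the 0 h group were lysed then, without compound. For the other groups the medium was replaced by medium with 800 µM s4U and 1.2 µM KB742, 4 µM KI-ARv-03 or DMSO, and cells were lysed after 2, 4 or 8 h. KB742 and KI-ARv-03 are inhibitors of CDK9, the kinase that releases paused RNA polymerase II, and DMSO is their solvent. The 10 groups hold 3 libraries each, and the labels do not say that these are separate cultures, so p-values measure the spread between libraries, which may be technical. Since the 0 h cells were lysed before the medium change, a difference between DMSO and 0 h may come from time, the medium change, DMSO or the longer labelling, which cannot be told apart. Each compound was used at 1 dose, and the doses differ.

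Origins of replication are licensed before S phase, when the origin recognition complex (ORC) and CDC6 load MCM2 to MCM7, the ring-shaped core of the replicative helicase, onto DNA with the help of CDT1. ORC1 and ORC6 are subunits of ORC, and ORC1 and CDC6 are related ATPases. CDC6, CDT1 and ORC1 proteins are short-lived at defined cell cycle stages, which limits each origin to a single round of firing, and many licensing genes are transcribed under E2F factors as cells enter S phase.

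RefSeq promoters of 300 bases, 250 before the annotated start and 50 after it, were at hand for 8 of the 10 genes, on GRCh38.p14. MCM4 and MCM5 had no entry in that table. Letters of the E2F site were searched as TTTCCCGC, TTTCGCGC, TTTGCCGC and TTTGGCGC on both strands. A match was in 6 of the 8 promoters (75%), against 3.33% of the 27305 promoters of the table and 5.67% of the 9322 promoters of tested genes. CCAAT, searched on both strands, was also in 6 of the 8, against 35.7% of all promoters. These matches describe letters, not binding. Printed below, 5′ to 3′, are CDC6 (chr17:40287629-40287928, plus strand) and CDT1 (chr16:88803539-88803838, plus strand), which fell in DMSO, MCM7 (chr7:100101348-100101647, minus strand), an MCM gene with a match on each strand, and ORC6 (chr16:46689409-46689708, plus strand), which held no match. ORC6 was also called lower in DMSO at 8 h than at 0 h, and MCM7 was not. A link between a match and a fall was not tested. Capitals mark the E2F letters.
CDC6: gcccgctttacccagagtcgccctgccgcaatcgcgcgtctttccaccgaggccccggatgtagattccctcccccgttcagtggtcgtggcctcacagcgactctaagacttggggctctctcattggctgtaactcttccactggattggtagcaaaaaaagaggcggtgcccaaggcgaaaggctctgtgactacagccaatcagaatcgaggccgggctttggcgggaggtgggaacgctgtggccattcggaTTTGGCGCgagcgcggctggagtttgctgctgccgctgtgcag
CDT1: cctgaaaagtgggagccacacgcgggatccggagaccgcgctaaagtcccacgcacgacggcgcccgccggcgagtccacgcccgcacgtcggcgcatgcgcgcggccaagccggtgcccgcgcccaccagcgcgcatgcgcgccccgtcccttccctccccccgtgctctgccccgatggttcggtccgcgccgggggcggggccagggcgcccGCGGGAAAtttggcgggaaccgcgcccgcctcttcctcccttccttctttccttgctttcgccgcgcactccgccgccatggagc
MCM7: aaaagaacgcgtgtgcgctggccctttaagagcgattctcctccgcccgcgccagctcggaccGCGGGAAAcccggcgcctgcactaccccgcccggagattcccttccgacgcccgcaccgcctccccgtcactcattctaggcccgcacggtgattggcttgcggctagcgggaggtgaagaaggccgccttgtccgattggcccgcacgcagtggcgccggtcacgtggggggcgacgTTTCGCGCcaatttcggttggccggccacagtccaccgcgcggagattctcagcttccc
ORC6: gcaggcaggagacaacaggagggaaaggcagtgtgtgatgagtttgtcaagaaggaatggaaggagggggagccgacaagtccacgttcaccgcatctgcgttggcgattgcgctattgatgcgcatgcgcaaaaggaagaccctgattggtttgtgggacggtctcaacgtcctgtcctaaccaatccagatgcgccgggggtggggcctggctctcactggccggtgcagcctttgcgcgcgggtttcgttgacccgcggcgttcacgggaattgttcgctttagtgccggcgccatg
The CDC6 match began 7 bases after the start, and the CDT1 match lay on the other strand with its first printed base 35 bases before the start. In MCM7 the matches began 187 and 9 bases before the start. MCM2 held 2 overlapping matches, MCM3 held 2 apart from each other, and MCM6 held 4 in 2 overlapping pairs. ORC1, like ORC6, had none.

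The libraries held 3376884 to 9265131 reads in all, as recovered from the deposited CPM steps, of which 1415273 to 3970050 fell on the genes kept. They detected 11679 to 14355 genes. Among markers of luminal prostate cells, the median deposited CPM over the 30 libraries was 77 for KRT18, 63.7 for KRT8, 57.5 for HOXB13, 16.7 for KLK2 and 6.83 for KLK3. Basal markers summed to 0 to 0.56, endothelial to 0 to 0.16, immune to 0 to 1.88 and stromal to 0.264 to 7.71 CPM, with KRT14, COL1A2, VWF, CDH5 and PTPRC at 0 reads throughout. One library stood apart: replicate 1 of KI-ARv-03 at 4 h had a mean conversion of 1.18%, against 0.382% and 0.422% in replicates 2 and 3. Conversions that rest on it are given with and without it. Levels are relative to the rest of the library and were rescaled between libraries (TMM). In a culture measured in bulk, fewer cells with a transcript and less of it per cell cannot be told apart.

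CDC6, the ATPase that recruits the MCM ring to ORC, fell steeply with time in DMSO and fell less far in both compounds. Its level at 0 h was 72.1, 75.9 and 89.1 CPM in replicates 1 to 3. In DMSO it was 29.5, 32.9 and 29.8 CPM at 2 h, 13.7, 11.5 and 11.4 CPM at 4 h, and 3.1, 4.25 and 1.84 CPM at 8 h. Every time point lay below the one before it with no overlap between groups. The differences from 0 h on the log2(CPM + 1) scale were -1.33 ± 0.27 (SE) at 2 h, -2.60 ± 0.27 at 4 h and -4.34 ± 0.27 at 8 h (limma, adjusted p = 0.00544, 4.24e-07 and 6.72e-12). At 8 h the 3 DMSO libraries held 5, 11 and 2 CDC6 reads, so counting error is large there. CDC6 was the 1 member called lower at 2 h, where 2.64% of all tested genes were, and the 1 member called lower at 4 h, where 14.6% were.

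With the compounds, CDC6 at 2 h was 33.8, 54.2 and 43 CPM in KB742 and 42.7, 34.4 and 37.9 CPM in KI-ARv-03, all above the 3 DMSO values. At 4 h it was 32.8, 23.5 and 21.4 CPM in KB742 and 19.6, 20.4 and 16.8 CPM in KI-ARv-03, again all above DMSO. At 8 h it was 15.2, 9.53 and 8.88 CPM in KB742 and 14.1, 19.5 and 14 CPM in KI-ARv-03, against at most 4.25 CPM in DMSO. The log2 difference from DMSO with KB742 was 0.47 at 2 h (adjusted p = 1, limma), 1.01 at 4 h (95% interval 0.45 to 1.56, adjusted p = 0.294) and 1.60 at 8 h (1.04 to 2.15, adjusted p = 0.00135). For KI-ARv-03 it was 0.31, 0.59 and, at 8 h, 2.08 (1.53 to 2.64, adjusted p = 3.83e-05). CDC6 was thus called at 8 h and not earlier, and it was the 1 member of 10 called higher with either compound at 8 h, where the share of tested genes called higher was 1.23% for KB742, and for KI-ARv-03 it was 1.95%. Both 8 h calls held without each library in turn. Fitted on the compared groups alone, which share fewer libraries to estimate the spread, the differences were 1.57 and 2.03 and were not called (adjusted p = 0.29 and 0.118).

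**Figure D1:**
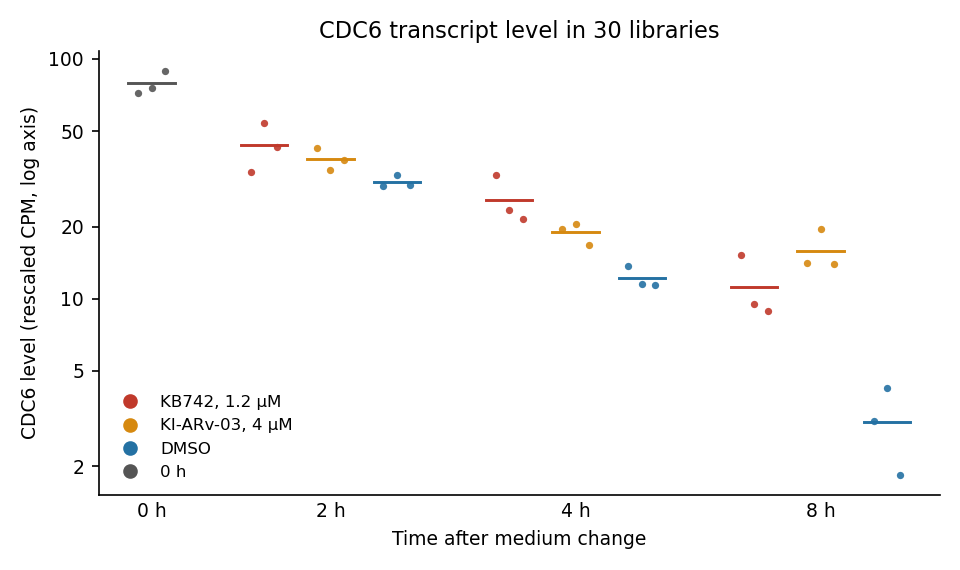
CDC6 level (rescaled CPM, log axis) in each library against hours of treatment, with compounds drawn left of DMSO at each time, points for libraries and bars for group means. CDC6 is lower at each later time point in DMSO, down to 3.06 CPM on average at 8 h, while KB742 and KI-ARv-03 libraries stay higher, at 11.2 and 15.9 CPM.

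In order of group means, CDC6 stood highest at 0 h (79 ± 8.9 CPM, SD, n = 3). KB742 at 2 h (43.7 ± 10.2) and KI-ARv-03 at 2 h (38.3 ± 4.21) overlapped each other, as did DMSO at 2 h (30.7 ± 1.9) and KB742 at 4 h (25.9 ± 6.05). KI-ARv-03 at 4 h (18.9 ± 1.89) and at 8 h (15.9 ± 3.14) overlapped, and so did DMSO at 4 h (12.2 ± 1.3) and KB742 at 8 h (11.2 ± 3.49). The compounds also overlapped at 8 h, with 8.88 to 15.2 CPM in KB742 and 14 to 19.5 CPM in KI-ARv-03. DMSO at 8 h was lowest, at 3.06 ± 1.2 CPM.

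CDT1, the loading factor that works beside CDC6, also fell in DMSO but with wide spread between libraries. Its level was 100, 67.3 and 191 CPM at 0 h, 75.4, 40.3 and 103 CPM in DMSO at 2 h, 58.7, 59.3 and 37.9 CPM at 4 h, and 35.9, 23.6 and 40.6 CPM at 8 h. The 8 h values all lay below the 0 h values, and the log2 difference was -1.71 ± 0.54 (adjusted p = 0.01, limma). Without replicate 3 of 0 h, the library with 191 CPM, it was -1.35 and not called (adjusted p = 0.0584). At 8 h CDT1 was 17.2, 61.7 and 45.9 CPM in KB742 and 23, 54.3 and 18.5 CPM in KI-ARv-03, on both sides of DMSO, and neither compound was called. The log2 differences from DMSO were 0.17 (95% interval -0.93 to 1.27) for KB742 and -0.18 (-1.28 to 0.92) for KI-ARv-03. With the GC tilt described below as a covariate the intervals were narrower, -0.21 to 0.56 for KB742 and -0.55 to 0.22 for KI-ARv-03, and CDT1 was again not called with either compound (adjusted p = 0.648 and 0.596, limma), while its difference between DMSO at 8 h and 0 h was -1.73 ± 0.19 (SE, adjusted p = 3.72e-08).

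ORC6, the smallest ORC subunit, was 31, 42.7 and 33.2 CPM at 0 h and 15.5, 13.1 and 8.3 CPM in DMSO at 8 h, with no overlap. The log2 difference was -1.49 ± 0.39 (adjusted p = 0.0026, limma). At 8 h ORC6 was 32.9, 13 and 7.4 CPM in KB742 and 17.8, 16.9 and 29.7 CPM in KI-ARv-03. The KB742 libraries spanned the DMSO range, and the KI-ARv-03 libraries lay above it. The log2 differences from DMSO were 0.29 (95% interval -0.50 to 1.09) and 0.75 (-0.05 to 1.54), neither of them called (adjusted p = 0.803 and 0.32).

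ORC1, the ATPase subunit of ORC, had few reads. It was 17, 14.2 and 0.26 CPM at 0 h, the last from 1 read, and 3.1, 3.87 and 0 CPM in DMSO at 8 h, from 5, 10 and 0 reads. The log2 difference was -1.37 ± 0.64 and was not called (adjusted p = 0.0758, limma). It depended on 2 libraries: without replicate 3 of 0 h it was -2.64 (adjusted p = 0.000105), and without replicate 2 of DMSO at 8 h it was -1.82 (adjusted p = 0.04). ORC1 was also called by edgeR on the recovered reads (-1.97, adjusted p = 0.0255) and on the deposited scaling (-1.43, adjusted p = 0.0199). At 8 h it was 11.2, 4.51 and 10.4 CPM in KB742 and 7.27, 9.5 and 11.1 CPM in KI-ARv-03, all above the 3 DMSO values. The log2 differences from DMSO, 1.75 ± 0.64 and 1.91 ± 0.64, did not pass the test (adjusted p = 0.177 and 0.0993). With the GC tilt described below as a covariate, the KI-ARv-03 difference was 1.90 ± 0.61 and was called (adjusted p = 0.0415, limma). In that fit 1292 of the 11418 tested genes were called, against 336 in the main fit. The ORC1 difference itself hardly moved, so that call is not a separate sign of a change in ORC1.

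None of the 6 helicase subunits was called lower in DMSO at 8 h on the rescaled levels. MCM4 was 320, 293 and 311 CPM at 0 h and 466, 554 and 450 CPM in DMSO at 8 h, every value of which was above 0 h. Its log2 difference was 0.66 ± 0.18 (adjusted p = 0.00294, limma), but on the deposited scaling it was -0.08 (adjusted p = 0.82), so its direction rests on the rescaling. On that scaling the median of all tested genes was -0.73, against -0.14 after rescaling, so MCM4 stood above the median gene on both. The other 5 subunits had log2 differences between DMSO at 8 h and 0 h of -0.39 (MCM2), 0.28 (MCM3), 0.19 (MCM5), -0.02 (MCM6) and 0.36 (MCM7), none of them called. On the deposited scaling these were -1.13, -0.46, -0.53, -0.74 and -0.38 in the same order of genes, and MCM2 was called lower (adjusted p = 0.0117, limma). Over the 10 members after rescaling, 1 was called higher (MCM4) and 3 lower (CDC6, CDT1 and ORC6) at 8 h in DMSO, where 20% and 29.1% of tested genes were. On the deposited scaling 0 were called higher and 5 lower (CDC6, CDT1, MCM2, ORC1 and ORC6), where 3.78% and 42.9% of tested genes were. The median difference of the 10 after rescaling was -0.20, beside -0.14 for all tested genes.

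**Figure D2:**
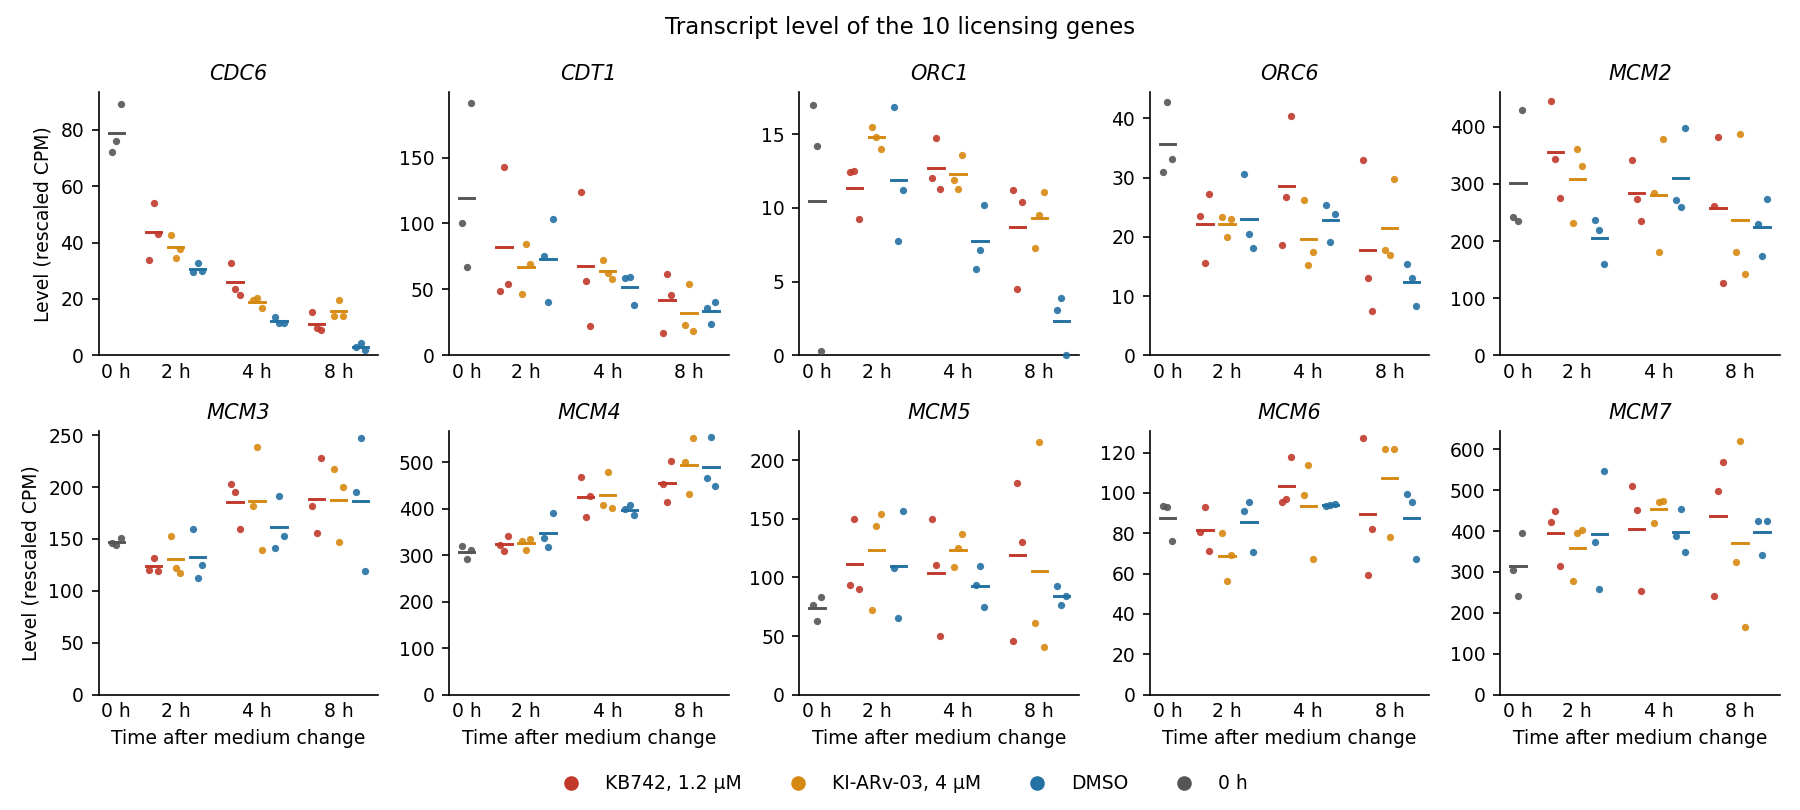
Level (rescaled CPM) of each of the 10 licensing genes in each library against hours of treatment, with compounds left of DMSO, points for libraries and bars for group means. CDC6 falls at every step in DMSO with no overlap between times, while MCM4 on this rescaled level, though not on the deposited scaling, is higher in DMSO at 8 h, at 490 CPM on average, than at 0 h, at 308 CPM, and CDT1, MCM5 and MCM7 scatter widely within groups.

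Neither compound gave a called change in an MCM level at any time. MCM4, the subunit with the smallest spread, was 453, 414 and 503 CPM in KB742 and 501, 432 and 552 CPM in KI-ARv-03 at 8 h, overlapping DMSO. Its log2 differences from DMSO were -0.10 (95% interval -0.46 to 0.26) and 0.01 (-0.35 to 0.37). For the 6 subunits together the differences at 8 h ran from -0.10 to 0.28 with KB742 and from -0.30 to 0.28 with KI-ARv-03. On the deposited scaling they ran from 0.27 to 0.64 and from 0.05 to 0.61, and none was called. The median of all tested genes there was 0.255 with KB742 and 0.247 with KI-ARv-03. MCM5 was the least well measured: at 8 h it was 45.7, 181 and 130 CPM in KB742 and 61, 216 and 40.4 CPM in KI-ARv-03, against 92.9, 76.5 and 83.9 CPM in DMSO. Its intervals, -0.72 to 1.29 with KB742 and -1.06 to 0.96 with KI-ARv-03, leave room for a large change in either direction. With the GC tilt described below as a covariate they were narrower, -0.15 to 0.73 and -0.48 to 0.40. MCM5 was again not called in that fit (adjusted p = 0.472 and 0.925, limma). MCM2 at 2 h was 445, 344 and 276 CPM in KB742, against 236, 220 and 160 CPM in DMSO, with no overlap. That log2 difference, 0.78 (0.01 to 1.55), did not pass adjustment (unadjusted p = 0.0466, adjusted p = 1, limma).

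At 2 and 4 h no member was called with either compound by limma or by edgeR. At an unadjusted p under 0.05 there was 1 member with KB742 (MCM2) and 0 with KI-ARv-03 at 2 h, and CDC6 with each compound at 4 h. Few genes of any kind were called then: 0.0263% of tested genes with each compound at 2 h, and 0.114% with KB742 and 0.0701% with KI-ARv-03 at 4 h. Between the compounds, at doses that differ, no member was called at 2, 4 or 8 h by limma or edgeR, and none had an unadjusted p under 0.05. No tested gene was called there either (0%). For CDC6 at 8 h KB742 minus KI-ARv-03 was -0.49 on the log2 scale (95% interval -1.05 to 0.07), which does not show that the compounds act alike. Whether the difference from DMSO had grown between 2 and 8 h was tested directly. For CDC6 it was larger at 8 h by 1.13 with KB742 (0.34 to 1.91, adjusted p = 0.574) and by 1.78 with KI-ARv-03 (0.99 to 2.57, adjusted p = 0.216). Neither passed, and 0.00876% of tested genes did with each compound.

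**Figure D3:**
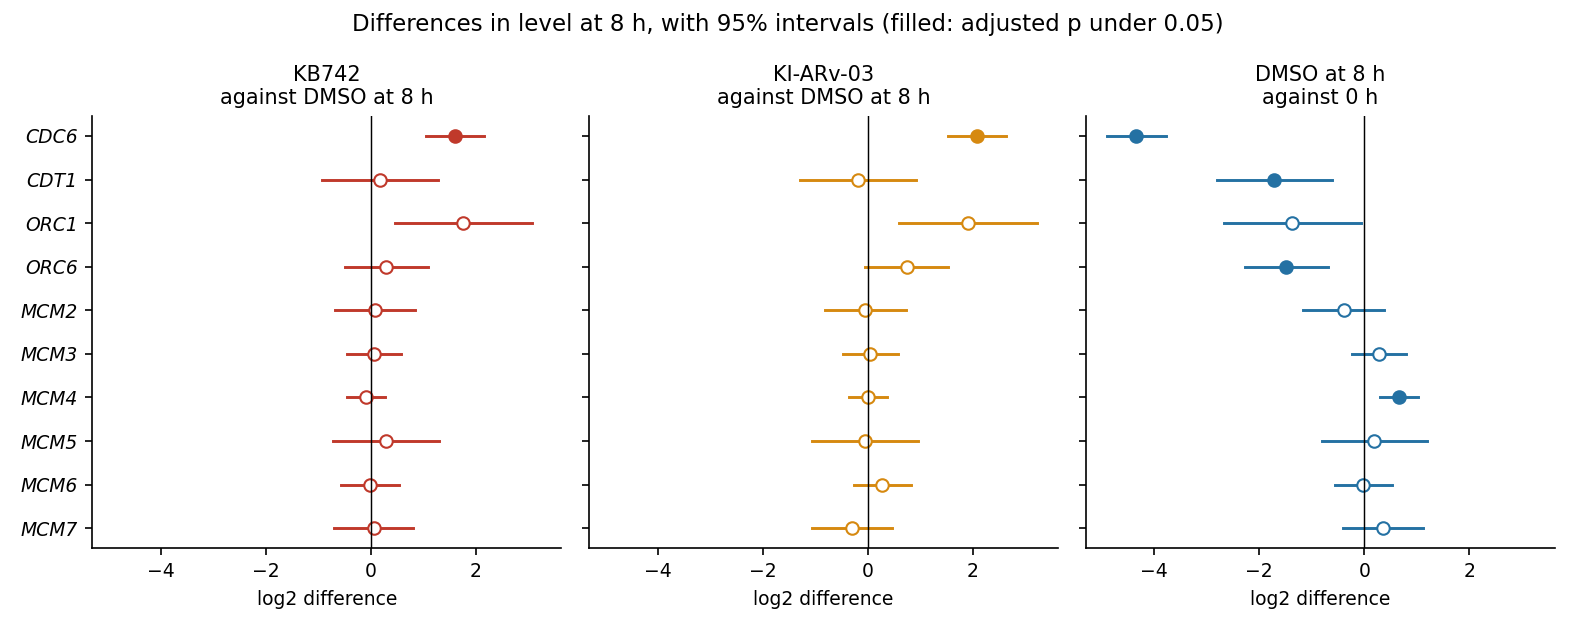
Log2 difference (x axis, limma, log2(CPM + 1) scale) of each licensing gene at 8 h, for KB742 and KI-ARv-03 against DMSO and, in the last panel, for DMSO against 0 h, with bars for 95% intervals and filled points for adjusted p under 0.05. With the compounds, on rescaled levels, CDC6 lies at 1.60 and 2.08 with intervals clear of 0. ORC1 lies at 1.75 and 1.91 with wide intervals, and the 6 MCM genes between -0.30 and 0.28.

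Conversion, the sign of newly made RNA, rose in DMSO for 4 members: CDT1, MCM3, MCM5 and ORC6. CDT1 was 1.2%, 1.32% and 0.489% at 0 h, 3.31%, 5.84% and 3.4% at 2 h, 5.34%, 5.4% and 10.3% at 4 h, and 7.78%, 13.9% and 7.62% at 8 h. Each time point lay above 0 h with no overlap (adjusted p = 0.0335, 0.000113 and 1.28e-06, limma on the arcsine square root scale). The 2 h call of CDT1 was lost without replicate 1 or 3 of 0 h or replicate 2 or 3 of DMSO (adjusted p = 0.0512, 0.185, 0.158 and 0.0591). MCM3 had a different course, 0.724 ± 0.197% at 0 h (SD, n = 3), 2.72 ± 0.487% at 2 h, 2.41 ± 0.624% at 4 h and 1.43 ± 0.472% at 8 h, called at 2 and 4 h (adjusted p = 0.000988 and 0.000821) and not at 8 h (0.0764). MCM5 was called at 8 h, where it was 1.44%, 2.05% and 3.5%, against 0.264%, 0.51% and 0.663% at 0 h (adjusted p = 0.00411). ORC6 was called at 8 h from 2 DMSO libraries, 2.04% and 6.35%, against 0.459%, 0.359% and 0% at 0 h (adjusted p = 0.00731), since replicate 3 had under 20 reads. Members called higher were 2 of 10 tested at 2 h, 2 of 9 at 4 h and 3 of 8 at 8 h, beside 8.48%, 34.7% and 42.8% of all tested genes. On simulated data this test made more false calls than nominal, so conversion calls here and below are less certain than their adjusted p.

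CDC6 conversion could not be followed to 8 h in DMSO, since none of the 3 libraries had 20 reads. It was 0.277%, 0.192% and 0% at 0 h, 0.063%, 1.28% and 0% in DMSO at 2 h, and 0%, 0% and 4.91% at 4 h, from 28 to 30 reads, with no call. At 8 h, 1 KB742 library gave 1.42% and the KI-ARv-03 libraries gave 1.44%, 1.17% and 0.858%. ORC1 was not testable against DMSO at 4 or 8 h, since 1 DMSO library had 20 reads at 4 h (2.38%, from 27 reads) and none had them at 8 h. MCM2 and MCM6 conversions stayed at or below 0.606% in every DMSO library, and neither was called at any time.

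**Figure D4:**
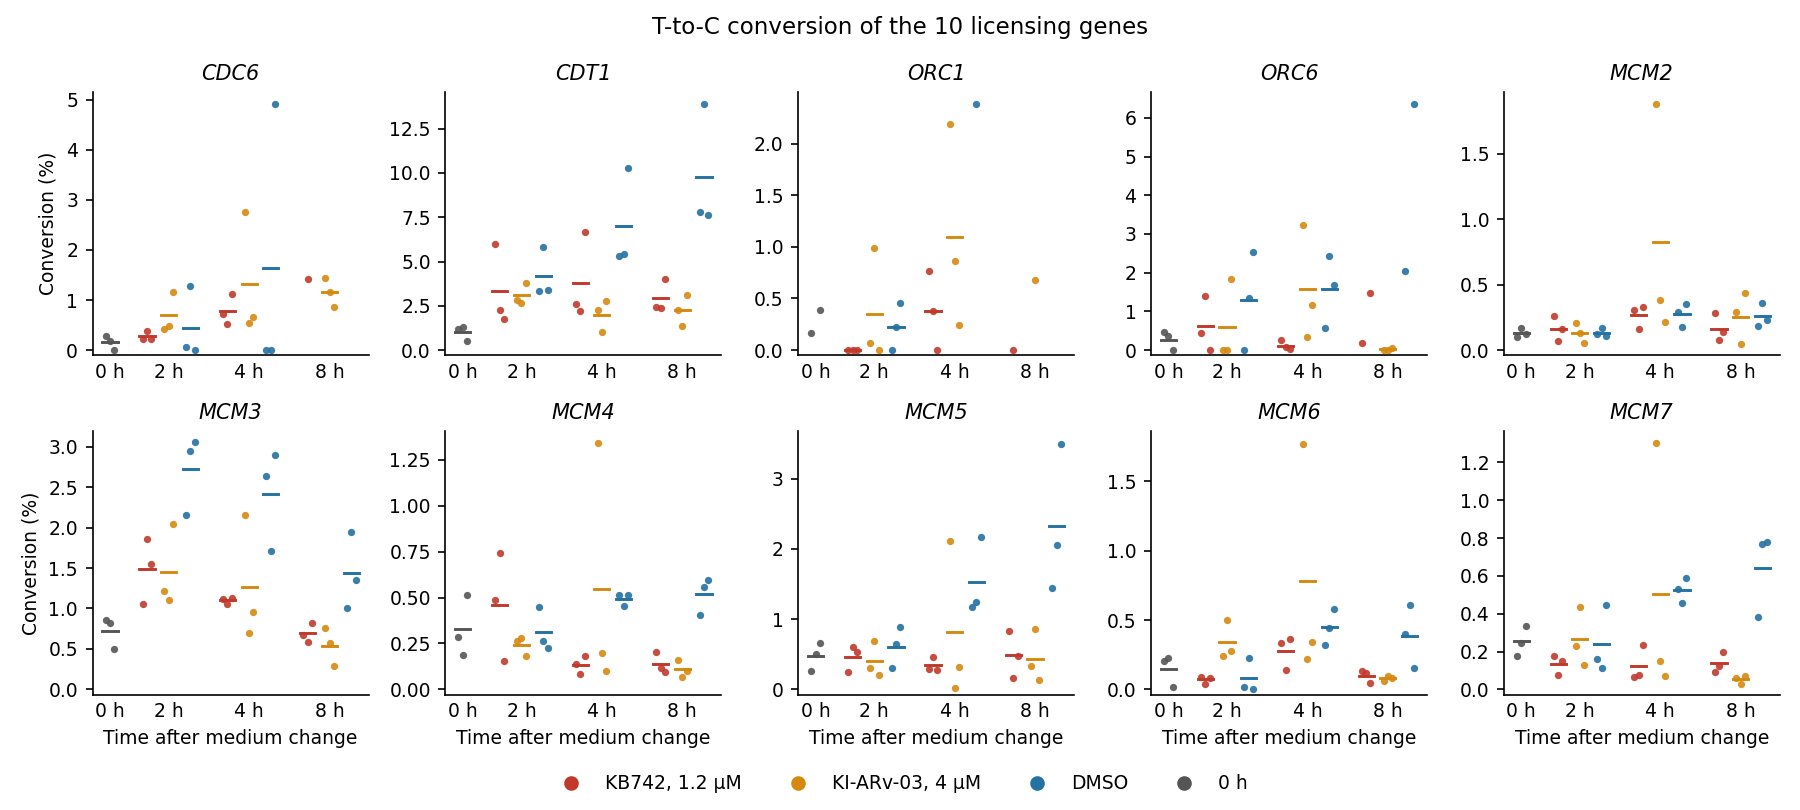
Conversion (deposited T-to-C fraction, in percent) of each licensing gene in each library against hours of treatment, with compounds left of DMSO. Points are libraries with at least 20 reads, and bars are means of groups with 3 points. At 8 h CDT1 and MCM5 average 2.93% and 0.488% with KB742 and 2.26% and 0.44% with KI-ARv-03, against 9.76% and 2.33% in DMSO. Replicate 1 of KI-ARv-03 at 4 h stands above its group in most panels.

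With the compounds, conversion was lower than in DMSO at 8 h for 4 of the 8 members tested in KB742 cells and for 6 in KI-ARv-03 cells, beside 34.6% and 36.9% of all tested genes. CDT1 fell furthest in percentage points, with 2.45%, 2.36% and 3.99% in KB742 and 2.24%, 1.39% and 3.14% in KI-ARv-03, against 7.78%, 13.9% and 7.62% in DMSO (adjusted p = 0.000685 and 0.000217, limma). MCM5 averaged 0.488 ± 0.33% in KB742 and 0.44 ± 0.375% in KI-ARv-03, against 2.33 ± 1.06% in DMSO (SD, n = 3 each, adjusted p = 0.00503 and 0.00371). No compound library of either gene reached the lowest DMSO library. With libraries weighted by read depth the KI-ARv-03 call of MCM5 was lost (adjusted p = 0.0544).

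MCM7 conversion at 8 h was 0.091%, 0.125% and 0.198% in KB742 and 0.062%, 0.027% and 0.073% in KI-ARv-03, against 0.385%, 0.767% and 0.778% in DMSO (adjusted p = 0.0191 and 0.0028, limma). MCM4 was 0.204%, 0.119% and 0.094% in KB742 and 0.16%, 0.068% and 0.099% in KI-ARv-03, against 0.407%, 0.555% and 0.594% in DMSO (adjusted p = 0.0465 and 0.0269). Neither gene's compound libraries overlapped DMSO, and neither gene's level was called different at 8 h. In DMSO neither gene's conversion was called different from 0 h at 2, 4 or 8 h (at 8 h adjusted p = 0.0932 for MCM7 and 0.374 for MCM4, limma). A rise of either gene by newly made RNA was thus not shown in DMSO. The compound means also lay below those of 0 h, where MCM7 was 0.254 ± 0.0798% and MCM4 was 0.33 ± 0.168% (SD, n = 3 each). Compounds against 0 h were not tested. ORC6 with KI-ARv-03 was 0%, 0% and 0.06% (adjusted p = 0.00248), and with KB742 0.192% and 1.47% in 2 libraries (adjusted p = 0.073). MCM3 was called lower with KI-ARv-03, at 0.54 ± 0.234%, against 1.43 ± 0.472% in DMSO (SD, n = 3 each, adjusted p = 0.0188), and was 0.692 ± 0.116% with KB742 (adjusted p = 0.074).

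Several of these calls rest on single libraries. With KB742 at 8 h, MCM4 lost its call without replicate 2 or 3 of DMSO (adjusted p = 0.112 and 0.12, limma) or any 1 KB742 library (0.0536, 0.101 and 0.123 without replicates 1 to 3), and in the fit weighted by reads (0.0793). MCM7 lost it without replicate 2 or 3 of DMSO (0.0747 and 0.0737) or replicate 1 of KB742 (0.06), and when weighted (0.056). With KI-ARv-03 at 8 h, MCM3 lost it without replicate 2 of DMSO (0.116) or replicate 3 of KI-ARv-03 (0.1). MCM4 lost it without replicate 2 or 3 of DMSO (0.07 and 0.0787) or replicate 2 or 3 of KI-ARv-03 (0.0835 and 0.0643). The other 8 h compound calls held without each library in turn, except that ORC6 could not be tested without replicate 1 or 2 of DMSO, its only DMSO libraries with 20 reads.

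At 4 h conversion was called lower with each compound in 1 member, of 9 tested, beside 17.4% of all tested genes with KB742 and 7.31% with KI-ARv-03. MCM3 was 1.12%, 1.05% and 1.13% in KB742, against 2.64%, 1.71% and 2.89% in DMSO (adjusted p = 0.028, limma). It lost its call without replicate 1 or 3 of DMSO (0.0858 and 0.123) or any 1 KB742 library (0.0742, 0.0802 and 0.051 without replicates 1 to 3). CDT1 was 2.24%, 1.02% and 2.77% in KI-ARv-03, against 5.34%, 5.4% and 10.3% in DMSO (adjusted p = 0.0122), and lost its call without replicate 3 of DMSO (0.114) or replicate 2 of KI-ARv-03 (0.106). The library that stood apart, replicate 1 of KI-ARv-03, had high conversions for most members, such as 1.88% for MCM2, 1.34% for MCM4, 1.77% for MCM6 and 1.30% for MCM7. In replicates 2 and 3 these were 0.382% and 0.214%, 0.197% and 0.103%, 0.222% and 0.344%, and 0.151% and 0.069%, in the same order of genes. Without that library 5 members were called lower with KI-ARv-03 at 4 h, in place of 1. Leaving it out changes the estimated spread of every group, and 4 members were then called lower with KB742. Shares of all tested genes called in these re-fits are not given here, so these counts are not a result about the members.

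At 2 h no member's conversion was called with KB742 or KI-ARv-03 by limma, beside 0.853% and 0.82% of tested genes, and edgeR does not apply to these fractions. MCM3 was the 1 member with an unadjusted p under 0.05 for each, averaging 1.49 ± 0.406% in KB742 and 1.45 ± 0.509% in KI-ARv-03, against 2.72 ± 0.487% in DMSO (SD, n = 3 each, adjusted p = 0.184 and 0.167). Between the compounds no member was called at 2, 4 or 8 h, with 0, 1 and 0 at an unadjusted p under 0.05, and 0% of all tested genes were called. The effect at 8 h was not called different from that at 2 h for any of 8 members tested, with 3 at an unadjusted p under 0.05 for KB742 and 5 for KI-ARv-03. Among all tested genes 4.66% and 5.48% were.

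Members differed widely in how far libraries of 1 group scattered, and in some members that scatter tracked the GC tilt of the library. GC tilt was defined for each library as the median deviation from the group mean of genes in the upper tertile of GC content (from 47%) minus that of genes in the lower tertile (to 35%), over the last 300 bases of the transcript. It ran from -0.862 in replicate 3 of KB742 at 4 h to 0.888 in replicate 2 of KI-ARv-03 at 8 h, on the log2 scale. CDT1, whose last 300 bases hold 54.7% GC, deviated from its group means by -1.25 to 1.18 and tracked the tilt over the 30 libraries with Pearson r = 0.971 and Spearman rho = 0.974 (permutation test, adjusted p = 3.33e-05 over 10 members, from the smallest p that 100000 resamples can give). MCM5 (30.3% GC) had r = 0.93 and rho = 0.927, and MCM7 (56% GC) had r = 0.907 and rho = 0.9, with the same adjusted p. Without the 2 libraries farthest from the median tilt these were 0.969, 0.909 and 0.878. ORC6 (31.3% GC) and MCM6 (34.3% GC) ran the other way, with r = -0.68 and -0.62, rho = -0.678 and -0.619, and r = -0.66 and -0.56 without those 2 libraries (permutation test, adjusted p = 0.00025 and 0.0005 for r). Deviations were taken from group means yet resampled freely over the 30 libraries, so p-values of the permutation test are too small. The tertiles that define the tilt hold members too, such as CDT1 and MCM7 in the upper and MCM6 and ORC6 in the lower. Tilt and deviations thus come from the same libraries, and these relations are a description, not independent support.

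CDC6 deviated by only -0.47 to 0.44 and did not track the tilt (r = 0.156, rho = 0.0937, permutation p = 0.41 and 0.622, r = -0.019 without the 2 farthest libraries). MCM4 deviated least, by -0.19 to 0.18. MCM3, MCM4 and ORC1 had no called relation, and MCM2 had r = 0.441 and rho = 0.396 (adjusted p = 0.0261 and 0.0518, permutation test), with r = 0.322 without the 2 farthest. Those MCM2 p-values lie near the threshold and are too small, so no call is made for MCM2. Deviations of MCM5 and MCM7 correlated at 0.934 with each other, those of CDT1 and MCM5 at 0.873 and those of CDT1 and MCM7 at 0.836, over the same 30 libraries, as a description. MCM5 is as GC-poor as ORC6 at its end, yet moved with CDT1 and MCM7. With GC tilt as a covariate, chosen after the data were seen, the CDC6 differences from DMSO at 8 h were again 1.60 and 2.08 (adjusted p = 0.000402 and 9.96e-06, limma).

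**Figure D5:**
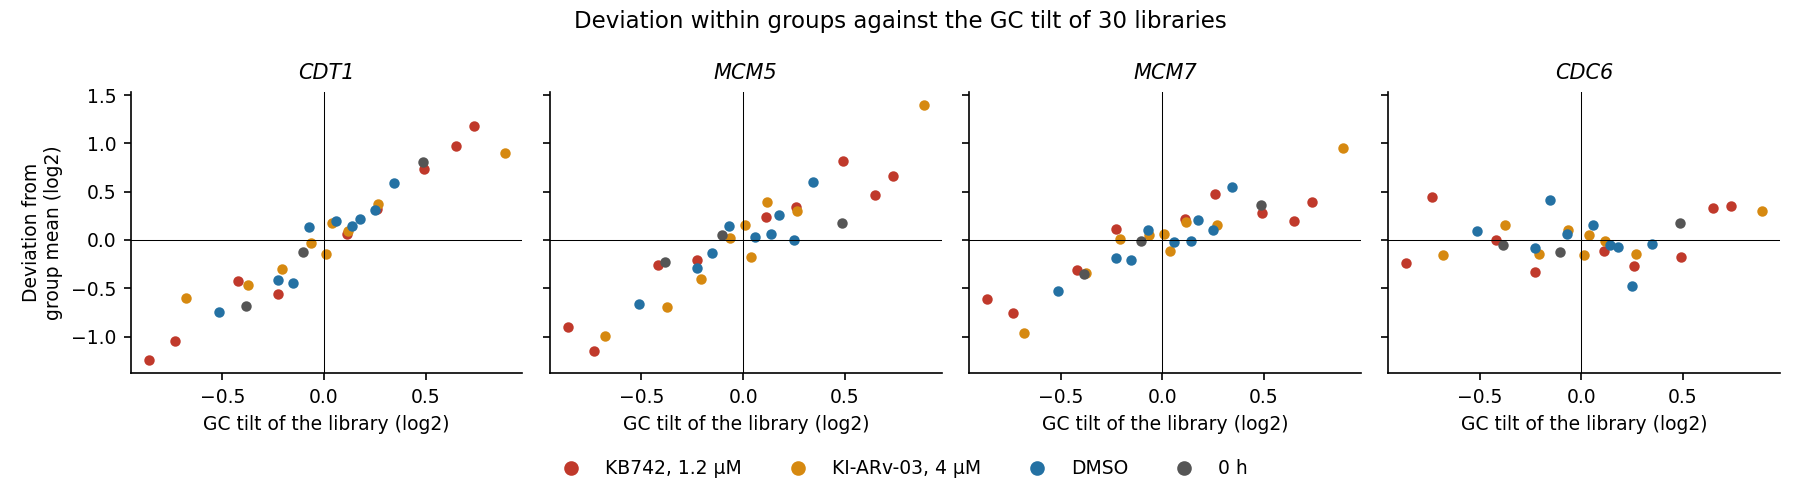
Deviation of a gene's level from its group mean (log2, y axis) against the GC tilt of the library (log2, x axis), a point for each of the 30 libraries. CDT1, MCM5 and MCM7 rise with the tilt (r = 0.971, 0.93 and 0.907), while CDC6, in the last panel, does not track it (r = 0.156).

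Neighbouring steps of replication were read from lists of named genes. Of the 4 other ORC subunits tested, 2 were called lower in DMSO at 8 h than at 0 h, where 29.1% of all tested genes were: ORC5 averaged 7.43 ± 2.4 CPM, against 36.5 ± 4.24 CPM at 0 h, and ORC2 averaged 7.54 ± 3.27 CPM, against 21.4 ± 4.28 CPM (SD, n = 3 each, adjusted p = 0.00156 and 0.00437, limma). The median log2 difference of the list was -1.19, beside -0.14 for all tested genes. Of 8 regulators of licensing 6 were called lower, beside the same 29.1% of all tested genes, with a median of -2.69. FBXO5, an inhibitor of the anaphase-promoting complex, averaged 0.258 ± 0.446 CPM, against 14.9 ± 4.37 CPM at 0 h (adjusted p = 2.58e-06). KAT7, a histone acetyltransferase that acts at origins, had a log2 difference of -3.19 ± 0.48, and DTL, the adaptor of a ligase that degrades CDT1, one of -3.06 ± 0.30 (adjusted p = 8.02e-06 and 2.12e-08). On the deposited scaling 3 of 4 ORC subunits and 7 of 8 regulators were called lower, with medians of -1.68 and -2.87, beside 42.9% of all tested genes and a median of -0.73. No ORC subunit of this list was called with either compound at 8 h by limma or edgeR, and 0 had an unadjusted p under 0.05. By contrast 2 regulators were called higher with each, beside 1.23% of all tested genes for KB742 and 1.95% for KI-ARv-03. CCNA2, cyclin A2, averaged 63 ± 30.5 CPM in KB742 and 75.9 ± 26.3 CPM in KI-ARv-03, against 22.2 ± 4.38 CPM in DMSO (adjusted p = 0.0147 and 0.00143). DTL averaged 30.8 ± 9.46 and 28.6 ± 11 CPM, against 11.8 ± 2.23 CPM in DMSO (adjusted p = 0.0192 and 0.0293).

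The CCNA2 call with KB742 was lost without replicate 2 of DMSO (adjusted p = 0.0515, limma) or replicate 1 or 3 of KB742 (0.117 and 0.0677). The DTL call was lost without replicate 3 of DMSO (0.107 with KB742 and 0.111 with KI-ARv-03), without replicate 1 or 3 of KB742 (0.0738 and 0.0957) and without replicate 1 or 3 of KI-ARv-03 (0.166 and 0.073). GMNN, geminin, the inhibitor that binds CDT1, had a conversion at 8 h of 2.3 ± 1.19% in KB742 and 2.17 ± 1.02% in KI-ARv-03. In DMSO at 8 h it was 20.2 ± 4.8% (adjusted p = 5.84e-08 and 6.24e-07, limma), and at 0 h 0.378 ± 0.342%. These are means and SDs over libraries with at least 20 reads, which may be under 3 in a group at 8 h. GMNN was low in DMSO at 8 h, at 15.2 ± 5.67 CPM.

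Of 13 tested genes of origin firing, 3 were called lower in DMSO at 8 h than at 0 h and 1 higher, neither share above the 29.1% and 20% of all tested genes, with a median log2 difference of -0.63. The 1 called higher was GINS4, a GINS subunit (log2 difference 1.30, adjusted p = 0.0025, limma). GINS4 was not called on the deposited scaling (adjusted p = 0.21), where 7 of the 13 were called lower and none higher. MCM10, a helicase activation factor outside the ring, fell to 5.77 ± 3.73 CPM in DMSO at 8 h, against 78.2 ± 4.67 CPM at 0 h (log2 difference -3.73 ± 0.34, adjusted p = 9.37e-09). GINS3 fell to 8.73 ± 2.05 CPM, against 65.8 ± 4.42 CPM (adjusted p = 1.25e-06), and TICRR, a firing factor, had no read in any DMSO library at 8 h, against 10.7 ± 6.22 CPM at 0 h. MCM10 was the 1 gene of this list called with the compounds at 8 h, at 22.9 ± 5.35 CPM in KB742 and 24.4 ± 9.03 CPM in KI-ARv-03 (log2 differences 1.98 and 2.04, adjusted p = 0.00153 and 0.00106). As with CDC6, these calls of CCNA2, DTL and MCM10 with either compound were lost in the fit of the compared groups alone. These lists were chosen with earlier results known, so their counts are a description.

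Over the 10 group means, genes whose course was among those most like that of CDC6, of 5873 with a mean level of at least 20 CPM, were MED13L (Pearson r = 0.995), WDR43 (0.986), NEDD4L (0.985) and WAC (0.984). None is a licensing gene. Among the members ORC6 (0.865) and CDT1 (0.841) were most like CDC6, and MCM4 ran opposite to it (-0.846). On the deposited scaling these were 0.917, 0.916 and -0.177, so the opposite course of MCM4 rests largely on the rescaling. The mean course of MCM2 to MCM7 after rescaling was most like those of C18orf56 (0.933), VPS53 (0.932), GSPT1 (0.897), ARL2BP (0.885) and DNAL1 (0.880). The subunits themselves had r from 0.027 (MCM2) to 0.748 (MCM7) with that mean, so it is not a course they all share.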

How the data were processed

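RNA of 30 libraries of 22Rv1 cells was read at transcript 3′ ends after s4U labelling and alkylation, per the labels' protocols. The deposited table gives, for each of 85618 transcript rows, a CPM signal (reads scaled to library size) and a conversion fraction per library; the genome build is hg19, per the submitters' processing notes, while an aligner, a conversion caller or the denominator of the conversion is not given in the sources used here. All deposited CPM values above 0 (100%) were whole multiples, within 0.05, of what 1 read is worth, so reads were recovered. Per gene the transcript row with the highest summed CPM was used, and rows with no gene symbol, 0.478% of reads, were left out. Reads of 3′ ends do not allow levels to be compared between genes. Where labels disagreed on a time or a dose, the time in the title and the dose in the extraction protocol were used.

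Levels were rescaled with TMM factors, filtered with filterByExpr (minimum count 10) and tested as log2(CPM + 1) with limma 3.58.1 in 1 fit of the 10 groups, over 11418 genes. Differences on this scale understate changes of low genes. Conversions were tested with limma on the arcsine square root scale, with values from under 20 reads missing and at least 2 values per group, and the variance trend taken over read depth. P-values were adjusted by the Benjamini-Hochberg method over all genes of a comparison, and a call is an adjusted p under 0.05. The table gives no counts of converted bases, so no binomial interval was made for a conversion. On simulated data the conversion test made more false calls than nominal and fewer when libraries were weighted by reads, so the weighted fit was added as an alternative. The count test was edgeR 4.0.16 on recovered reads, in R 4.3.3, and correlations used scipy 1.17.1 and pandas 2.3.3 under Python 3.11.15, with figures from matplotlib 3.10.9. GC content was taken from GENCODE transcripts.

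All 10 members are named, together with at most the 3 genes of each other list with the largest difference among those called in a comparison, GINS4 apart, which was named after its values were seen. The genes most like CDC6 and the MCM mean were the 5 with the highest Pearson r. Of these and of the marker genes, 2 are not reported here. Members, lists and tests were chosen with earlier results of these data known. The 95% interval of a log2 difference reached a median of 0.864 to either side over tested genes. No 2 libraries of a group were duplicates: the lowest chi-square per gene between 2 of them was 3.99.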

Additional observations from a re-analysis of the deposited data

How the results depend on the processing

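Single members named for a level difference kept their direction and side of the threshold in 80 re-fits under another setting, while 3 newly passed, 2 no longer passed and 1 reversed. Without 1 library of the compared groups, 63 kept both, 2 newly passed and 1 no longer passed. For conversion, 126 kept both and 5 no longer passed under another setting, and 85 kept both and 25 no longer passed without 1 library. MCM4 in DMSO at 8 h against 0 h had a log2 difference of -0.081 on the deposited scaling. Members called for level in DMSO against 0 h numbered 2 at 2 h with GC tilt as a covariate, and 2 at 4 h with it or on the deposited scaling, in place of 1. With KI-ARv-03 at 8 h they numbered 2 with GC tilt, and in the fit of the compared groups alone 0 with each compound, in place of 1. The KI-ARv-03 effect at 8 h against 2 h was called in 1 member with GC tilt, and in 0 to 1 without 1 library, in place of 0.

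Members called for conversion with KB742 at 4 h numbered 3 at a minimum of 50 reads, 0 on the log2(percent + 0.1) scale, and 4 weighted by reads, without the library that stands apart or with the compared groups alone, in place of 1 (0 to 2 without 1 library). With KI-ARv-03 at 4 h they numbered 0 on that log2 scale and 5 without the library that stands apart, in place of 1 (0 to 5 without 1 library). With KB742 at 8 h they numbered 2 weighted by reads, in place of 4 (2 to 5 without 1 library), and with KI-ARv-03 3 to 6 without 1 library, in place of 6. In DMSO against 0 h they numbered 1 to 2 at 2 h without 1 library, in place of 2, 4 at 4 h with the compared groups alone, in place of 2, and 5 at 8 h without the library that stands apart, in place of 3 (2 to 4 without 1 library). The effect at 8 h against 2 h was called in 1 member with KB742 without the library that stands apart, in place of 0. With KI-ARv-03 it was called in 1 at 50 reads, 1 with GC tilt, 2 without that library and 1 with the compared groups alone, in place of 0 (0 to 2 without 1 library). The cause of these changes was not tested, beyond the fewer libraries that some fits use. Shares of all tested genes are not given beside the counts of this and the last paragraph. Those counts describe the settings and are not results about the members. Depth limits CDC6 and ORC1 most, at 0 to 11 reads a library in DMSO at 8 h.

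Replicate numbers did not pair the libraries: deviations of same-numbered libraries had a median correlation of -0.007, against 0.0107 for other numbers. With a replicate block, 1 member was again called higher for level at 8 h with KB742 and 1 with KI-ARv-03. Rescaling changed the split of calls over all genes. In DMSO at 8 h against 0 h, 40.7% of calls were higher, and 8.1% on the deposited scaling. At 4 h these were 28.1% and 2.36%. At 8 h the KB742 calls against DMSO were higher in 67.1% after rescaling and 86.7% before it, where the median gene stood at -0.026 and 0.255. The KI-ARv-03 calls were higher in 66.4% and 87.1%, where it stood at 0.002 and 0.247.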

Other observations

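Of 29 tested genes of the replication fork and of nucleotide supply, 5 were called higher and 6 lower in DMSO at 8 h than at 0 h (limma), neither share above the 20% and 29.1% of all tested genes. On the deposited scaling 0 were called higher and 15 lower, beside 3.78% and 42.9%. The median log2 difference of the list was -0.32 after rescaling, beside -0.14 for all tested genes. FEN1, the flap endonuclease of lagging-strand synthesis, averaged 65.8 ± 13.5 CPM, against 376 ± 125 CPM at 0 h (SD, n = 3 each, adjusted p = 7.98e-08, limma). RPA3, the small subunit of the single-strand binding protein, averaged 707 ± 50.4 CPM, against 251 ± 119 CPM (adjusted p = 0.000474), and missed the threshold on the deposited scaling (adjusted p = 0.0566). RFC1, the large subunit of the clamp loader, averaged 10.4 ± 2.6 CPM, against 51.7 ± 3.9 CPM (adjusted p = 3.35e-07). RFC1 was the 1 gene of the list called with the compounds at 8 h, at 25 ± 10.4 CPM in KB742 and 31.9 ± 6.95 CPM in KI-ARv-03 (adjusted p = 0.0197 and 0.00114). The KB742 call was lost without replicate 3 of DMSO (0.138) or replicate 1 or 3 of KB742 (0.148 and 0.0677), and both were lost in the fit of the compared groups alone (0.407 and 0.154). Conversion of FEN1 at 8 h averaged 1.12 ± 0.22% in KB742 and 0.908 ± 0.354% in KI-ARv-03, against 5.15 ± 1.42% in DMSO (SD, n = 3 each, adjusted p = 6.54e-06 and 3.16e-06, limma).

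Of 13 E2F factors and pocket proteins, the regulators of many licensing genes, 8 were called lower and 0 higher in DMSO at 8 h than at 0 h, by limma and by edgeR, beside 29.1% and 20% of all tested genes by limma. Their median log2 difference was -1.54, beside -0.14 for all tested genes. E2F2, an activator, averaged 7.45 ± 4.95 CPM, against 82.6 ± 13.2 CPM, and E2F3, another activator, 7.38 ± 1.82 CPM, against 47.3 ± 2.84 CPM (SD, n = 3 each, adjusted p = 2.17e-06 and 1.68e-06, limma). E2F8, a repressor, averaged 0.743 ± 0.972 CPM, against 14.5 ± 3.34 CPM (adjusted p = 1.82e-05). With the compounds at 8 h none of the 13 was called for level by limma or edgeR, with 1 at an unadjusted p under 0.05 for KB742 and 2 for KI-ARv-03. E2F4, a repressor, had a conversion at 8 h of 1.26 ± 0.189% in KB742 and 1.32 ± 0.531% in KI-ARv-03, against 6.56 ± 1.56% in DMSO (SD, n = 3 each, adjusted p = 0.000141 and 0.000189). MCM8 and MCM9, relatives of the ring subunits that act in repair, were not called for level in any comparison by limma or edgeR, and 0 had an unadjusted p under 0.05.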
